A study of Mus musculus with 4 samples.

Results

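A set of 5 ligands and 4 receptors of the chemokine system were followed in activated mouse CD4+ T cells given interferon alpha (IFNa). The 9 genes were the ligands Cxcl10, Ccl3, Ccl4, Ccl5 and Xcl1, and the receptors Ccr8, Cxcr3, Cxcr4 and Cxcr5. Each was read from the array's row whose platform annotation named that gene alone, taking the row with the highest mean where a gene had several. All 9 had a row of their own, out of 19752 genes that did. Of the 9, 7 lay above the array's median on at least 1 array and were tested with 10699 genes in all, while Ccl4 and Xcl1 lay under the median on every array and were not tested.

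The cells were CD4+ T cells taken by negative selection from the spleens of male C57BL/6 mice aged 6 weeks and activated with CD3/28 beads for 48 h. One array held cells after 2 h with IFNa at 100 U/ml, another held cells after 8 h at the same dose, and 2 arrays held activated cells without IFNa, the baseline. Every array therefore held activated cells. No untreated array was matched in time to the IFNa arrays, so IFNa and further time in culture cannot be told apart. The sample preparation label of the IFNa arrays also mentions JAK inhibitors, with or without, and does not say which applies. Each IFNa time rests on 1 array with no replicate check, and p-values measure only the spread between the 2 baseline arrays, which may be technical because the labels do not name separate mice or cultures.

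Chemokines are small secreted proteins that guide cell migration by binding receptors coupled to inhibitory G proteins. Cxcl10 is an interferon-induced ligand of Cxcr3, the receptor that takes activated T cells into inflamed tissue. Ccl3, Ccl4 and Ccl5 are inflammatory ligands, and Ccl3 and Ccl5 bind Ccr1. Xcl1 binds Xcr1 on cross-presenting dendritic cells. Among the receptors, Ccr8 marks Th2 and tissue regulatory T cells and binds Ccl1 and, in the mouse, Ccl8. Cxcr4 holds lymphocytes and progenitors near stroma that makes Cxcl12, and Cxcr5 brings B cells and follicular helper T cells to follicles that make Cxcl13.

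The sequence just upstream of Cxcl10 and of Ccr8 is shown because these are the ligand and the receptor with the largest differences. Both are the 250 bases before the annotated start, from RefSeq on GRCm38.p6, read 5′ to 3′ on the gene's strand. Capitals mark matches, on either strand, to the core of the interferon-stimulated response element (ISRE, the letters GAAA, any 2 bases, then GAAA again), the STAT site GAS (TTCNNNGAA), the NF-kB motif and the AP-1 motif (TGANTCA).
Cxcl10, chr5:92348890-92349139, minus strand: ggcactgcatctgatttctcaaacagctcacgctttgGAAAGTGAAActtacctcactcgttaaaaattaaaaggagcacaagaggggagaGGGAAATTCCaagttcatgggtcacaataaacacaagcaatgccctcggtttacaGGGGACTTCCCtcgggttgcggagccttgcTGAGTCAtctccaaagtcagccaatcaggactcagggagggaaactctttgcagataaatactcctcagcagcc
Ccr8, chr9:120091883-120092132, plus strand: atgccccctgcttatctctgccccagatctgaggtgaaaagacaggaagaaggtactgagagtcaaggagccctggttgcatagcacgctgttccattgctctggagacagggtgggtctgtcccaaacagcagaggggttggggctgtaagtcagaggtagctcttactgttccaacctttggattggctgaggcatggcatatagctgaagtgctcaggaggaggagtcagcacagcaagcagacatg
In the Cxcl10 window an ISRE core match lay 213 to 204 bases before the start, and an AP-1 match 74 to 68 bases before it. One NF-kB match lay at 159 to 150 bases, and a pair that overlap each other lay at 104 to 94 bases. The Ccr8 window held no match to these 4 motifs, nor did those of Ccl3, Xcl1, Cxcr3 and Cxcr4, so that of the 6 members with a window only Cxcl10 had any. Among 32851 windows of the same length, 2.98% held an ISRE core match, 7.02% a GAS match, 7.25% an NF-kB match and 6.75% an AP-1 match. Both ISRE core and NF-kB matches were held by 0.164%. No other pair was counted, and the Cxcl10 window holds this one, so the share is no test of that window. A match describes the letters of the window and no binding was measured. RefSeq windows were matched by gene symbol, and Ccl4, Ccl5 and Cxcr5 are named only.

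The arrays were checked against cell type markers. All 7 CD4+ T cell markers with a row (Cd4, Cd3d, Cd3e, Cd3g, Cd5, Cd28 and Zbtb7b) lay above the array median on every array, with summed deposited intensities of 30973 at 2 h and 34880 at 8 h, against 27947 and 32253 at baseline. All 5 dendritic cell markers were under the median on every array. Of 7 myeloid markers 2 were above it on each array, and of 5 B cell markers 4 were. Of 2 CD8+ T cell markers, and of 4 natural killer cell markers, 1 or 2 were above it, depending on the array. The CD8+ T cell marker Cd8b1 had log2 levels of 9.57 at 2 h and 9.87 at 8 h, against 9.78 and 9.68 at baseline. The sums of the B cell markers were 2259 at 2 h and 2903 at 8 h, against 2320 and 2328 at baseline. Those of 9 neutrophil, erythroid and platelet markers were 1113 and 1451, against 1180 and 1172. Of these 9, 5 were under the median on every array. Over all genes under the median on every array, the median log2 difference from baseline was −0.16 at 2 h and 0.19 at 8 h. The deposited arrays also differed in distribution, and over the tested genes the median log2 difference, the scale of all differences given here, was 0.06 for 2 h against baseline. It was −0.16 for 8 h against baseline and −0.25 for 8 h against 2 h. After quantile normalization these medians were −0.01, −0.00 and 0.00. The split of called genes moved with it, to 332 higher and 109 lower at 2 h in place of 117 and 1, and to 663 and 900 at 8 h in place of 70 and 358. For 8 h against 2 h it was 990 higher and 1316 lower in place of 156 and 1155.

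**Figure D1:**
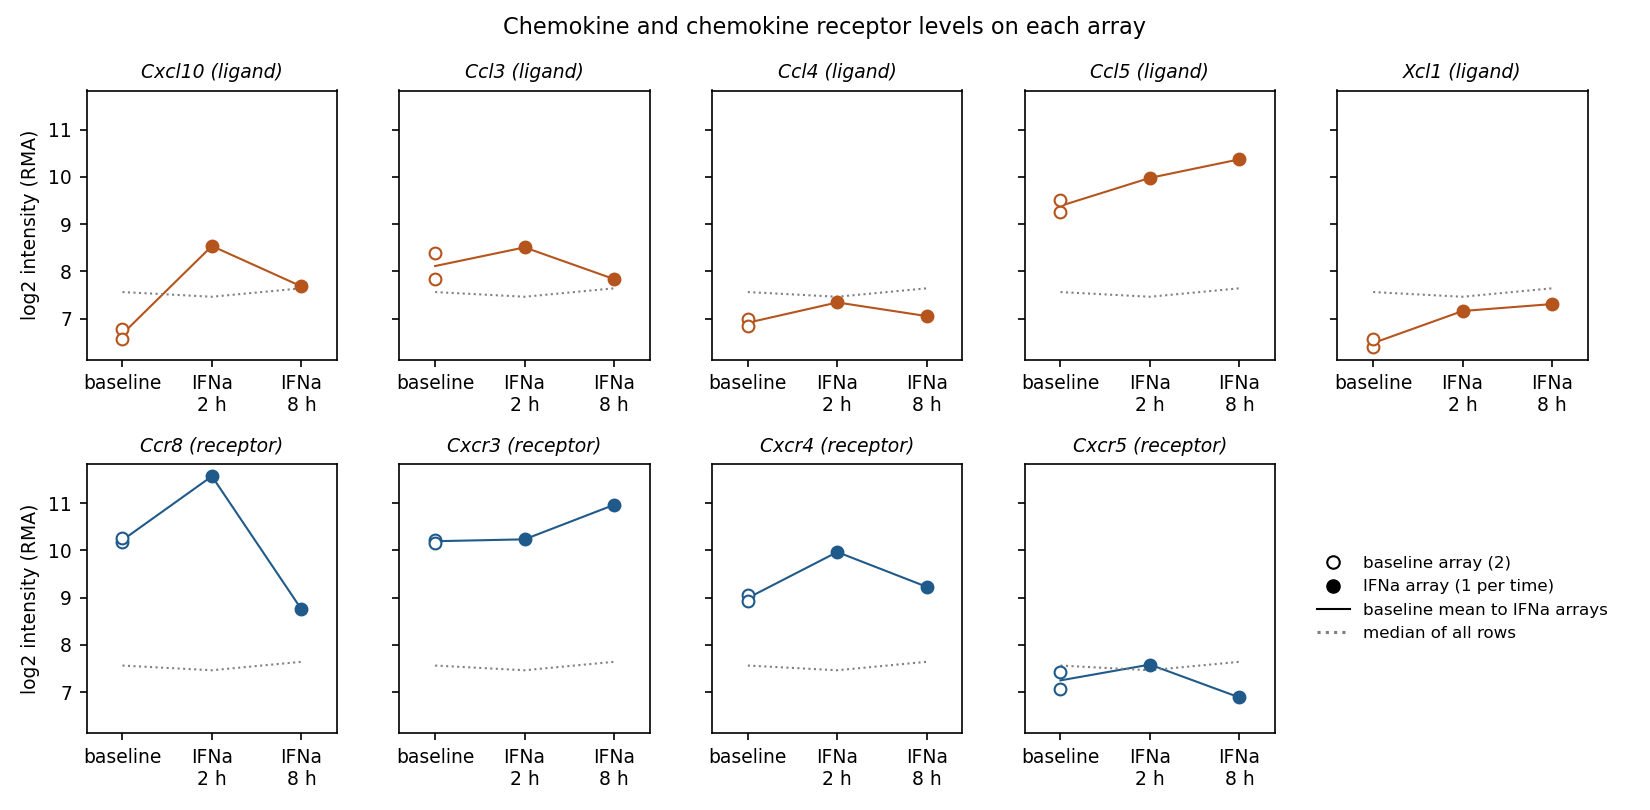
Log2 of the deposited intensity (vertical axis) of the 5 ligands (upper panels) and the 4 receptors (lower panels) at baseline (2 open points), after 2 h of IFNa and after 8 h of IFNa (1 filled point each). Lines join the baseline mean to the IFNa arrays, and dotted lines are the median of all rows. Ccr8 is at 11.57 after 2 h and 8.75 after 8 h, above and below both baseline points, while Ccl4 and Xcl1 stay under the dotted line.

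Cxcl10 rose most among the ligands. Its log2 level was 6.78 and 6.56 on the baseline arrays, 8.54 after 2 h and 7.68 after 8 h. Both IFNa arrays lay above both baseline arrays, and the 2 h array was the highest. The difference at 2 h was 1.86 (SE 0.21), a 3.64-fold rise with an adjusted p of 0.00475 by limma. At 8 h it was 1.01 (SE 0.21), or 2.01-fold, with an adjusted p of 0.0411, a call that was lost when dim genes were also tested (adjusted p = 0.0892). The 8 h array was lower than the 2 h array by a difference of −0.86 (95% interval −1.41 to −0.30), just outside the threshold with an adjusted p of 0.0527. It passed with quantile normalization, centring and an intensity trend (adjusted p = 0.0107, 0.0154 and 0.0432), but not with quantile differences and the deposited spread (adjusted p = 0.0771). Cxcl10 was under the median on both baseline arrays and entered the test through its IFNa arrays, so it was high where it passed. With no filter the 2 h call remained, at an adjusted p of 0.0109. In bulk RNA, more cells making a transcript and more transcript per cell cannot be told apart. Myeloid cells also make Cxcl10, and their marker sums were 880 at 2 h and 1000 at 8 h, against 1180 and 1010 at baseline. Of the 7 myeloid markers 2 had a positive difference at 2 h and 5 at 8 h, with medians of −0.25 and 0.12, and Lyz2 had −0.92 and −0.46. Their part in the Cxcl10 level was not tested.

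Ccl5, an attractant of effector T cells that memory T cells also make, rose at 8 h, and its 2 h difference did not pass. Its log2 level was 9.26 and 9.51 on the baseline arrays, 9.98 after 2 h and 10.37 after 8 h. Both IFNa arrays were above both baseline arrays and the 8 h array was the highest. At 8 h the difference was 0.99 (SE 0.21), or 1.98-fold, with an adjusted p of 0.0451, which became 0.097 with dim genes tested. At 2 h it was 0.59 (95% interval 0.10 to 1.08, adjusted p = 0.331), and 8 h differed from 2 h by 0.39 (−0.17 to 0.96, adjusted p = 0.28). That last difference was 0.74 and passed after quantile normalization (adjusted p = 0.0235, or 0.106 with the spread of the deposited values), and was 0.21 on centred arrays (adjusted p = 0.657). Natural killer and CD8+ T cells also make Ccl5. Their marker sums were 555.6 and 921 at 2 h and 490 and 1191 at 8 h, against 580 and 507 for natural killer cells and 1112 and 1001 for CD8+ T cells at baseline. Their part in the Ccl5 level was not tested.

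Ccl3 and Ccl4 are neighbours on chromosome 11, and neither passed the test. The log2 level of Ccl3 was 7.84 and 8.39 on the baseline arrays, 8.51 after 2 h and 7.84 after 8 h. The baseline arrays differed by 0.55, the widest gap among the 9 genes, and the 8 h array matched the lower of them to 2 decimals. Its differences were 0.40 at 2 h (95% interval −0.20 to 0.99, adjusted p = 0.572) and −0.28 at 8 h (−0.87 to 0.32, adjusted p = 0.533). Ccl4 had log2 levels of 6.99 and 6.84 at baseline, 7.34 after 2 h and 7.05 after 8 h. All 4 of its arrays lay under the array median. Its differences were 0.43 and 0.14, with 95% intervals of −0.05 to 0.91 and −0.34 to 0.62 from the fit with no filter (adjusted p = 0.716 and 0.758). After quantile normalization the 8 h difference turned to −0.06.

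Xcl1, made mainly by T cells and natural killer cells, was the other dim ligand. Its log2 level was 6.39 and 6.57 on the baseline arrays, 7.16 after 2 h and 7.31 after 8 h. Both IFNa arrays were above both baseline arrays but under the array median. In the fit with no filter the difference was 0.68 at 2 h (95% interval 0.19 to 1.17, adjusted p = 0.487) and 0.83 at 8 h (0.34 to 1.32, adjusted p = 0.134). Neither passed.

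Ccr8 had the largest receptor differences and was the only member called both higher and lower than baseline. Its log2 level was 10.18 and 10.26 on the baseline arrays, 11.57 after 2 h and 8.75 after 8 h. The baseline arrays were 0.09 apart, the 2 h array lay above both and the 8 h array below both. At 2 h Ccr8 rose 2.56-fold (difference 1.35, SE 0.20, adjusted p = 0.0183 by limma). At 8 h it was 2.76-fold lower than baseline (difference −1.46, SE 0.20, adjusted p = 0.00983). The 8 h array was 7.05-fold lower than the 2 h array (difference −2.82, SE 0.23, adjusted p = 0.00687). On intensities as deposited this was 432 at 8 h against 3044 at 2 h. These calls were kept with no filter on dim genes, with adjusted p of 0.0408, 0.0227 and 0.0169. Ccr8 lies next to Cx3cr1, the fractalkine receptor, on chromosome 9, and Cx3cr1 passed in none of the comparisons, with differences of −0.13 at 2 h and 0.39 at 8 h (adjusted p = 0.825 and 0.308).

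Cxcr4 and Cxcr3 had their highest arrays at different times, and neither passed the test on the deposited values. The log2 level of Cxcr4 was 9.06 and 8.92 at baseline, 9.97 after 2 h and 9.23 after 8 h. The 2 h array stood highest and both IFNa arrays were above both baseline arrays. Its difference at 2 h was 0.97 (95% interval 0.50 to 1.44, adjusted p = 0.0807), with 0.24 at 8 h (−0.23 to 0.71, adjusted p = 0.498) and −0.74 for 8 h against 2 h (−1.28 to −0.19, adjusted p = 0.0699). After quantile normalization the 2 h difference was 0.83 and passed (adjusted p = 0.0126), but not with the spread of the deposited values (adjusted p = 0.168). On centred arrays it was 1.07 and passed (adjusted p = 0.0119). The 8 h difference became 0.53 after quantile normalization (adjusted p = 0.0851). For 8 h against 2 h the difference was −0.31 after quantile normalization (adjusted p = 0.377), and −0.92 on centred arrays, where it passed (adjusted p = 0.0342).

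Cxcr3 had log2 levels of 10.23 and 10.16 at baseline, 10.23 after 2 h and 10.97 after 8 h. The 2 h array was at the level of the higher baseline array, and the 8 h array was above the other 3. The difference was 0.04 at 2 h (95% interval −0.42 to 0.50, adjusted p = 0.95), turning to −0.09 after quantile normalization, and 0.77 at 8 h (0.31 to 1.23, adjusted p = 0.0721). For 8 h against 2 h it was 0.73 (0.20 to 1.26, adjusted p = 0.0685). After quantile normalization the 8 h difference was 0.93 and passed (adjusted p = 0.00182, or 0.0472 with the spread of the deposited values), and on centred arrays it was 0.69 and did not (adjusted p = 0.133). For 8 h against 2 h it was 1.02 after quantile normalization and passed (adjusted p = 0.00213, or 0.0408 with the spread of the deposited values), and 0.55 on centred arrays (adjusted p = 0.224). The B cell marker sum was highest on the 8 h array, as given above. The 5 B cell markers had a median difference of 0.18 at 8 h, with a range of −0.23 for Ebf1 to 0.75 for Ms4a1 (adjusted p = 0.0882), and 4 of the 5 were positive. The part of B cells in the Cxcr3 level was not tested.

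Cxcr5 lay near the array median and passed in no comparison on the deposited values. Its log2 level was 7.07 and 7.43 at baseline, 7.58 after 2 h and 6.89 after 8 h. Only the 2 h array was above its array median (7.46), and the 8 h array was below both baseline arrays. The differences were 0.34 at 2 h (95% interval −0.19 to 0.86, adjusted p = 0.584), −0.36 at 8 h (−0.88 to 0.16, adjusted p = 0.351) and −0.70 for 8 h against 2 h (−1.30 to −0.09, adjusted p = 0.1). After quantile normalization the last of these was −0.98 and passed (adjusted p = 0.00463), as it did on centred arrays, at −0.87 (adjusted p = 0.0439). It did not pass with the quantile differences and the deposited spread (adjusted p = 0.0618). B cells carry Cxcr5, and their part in its level was not tested.

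**Figure D2:**
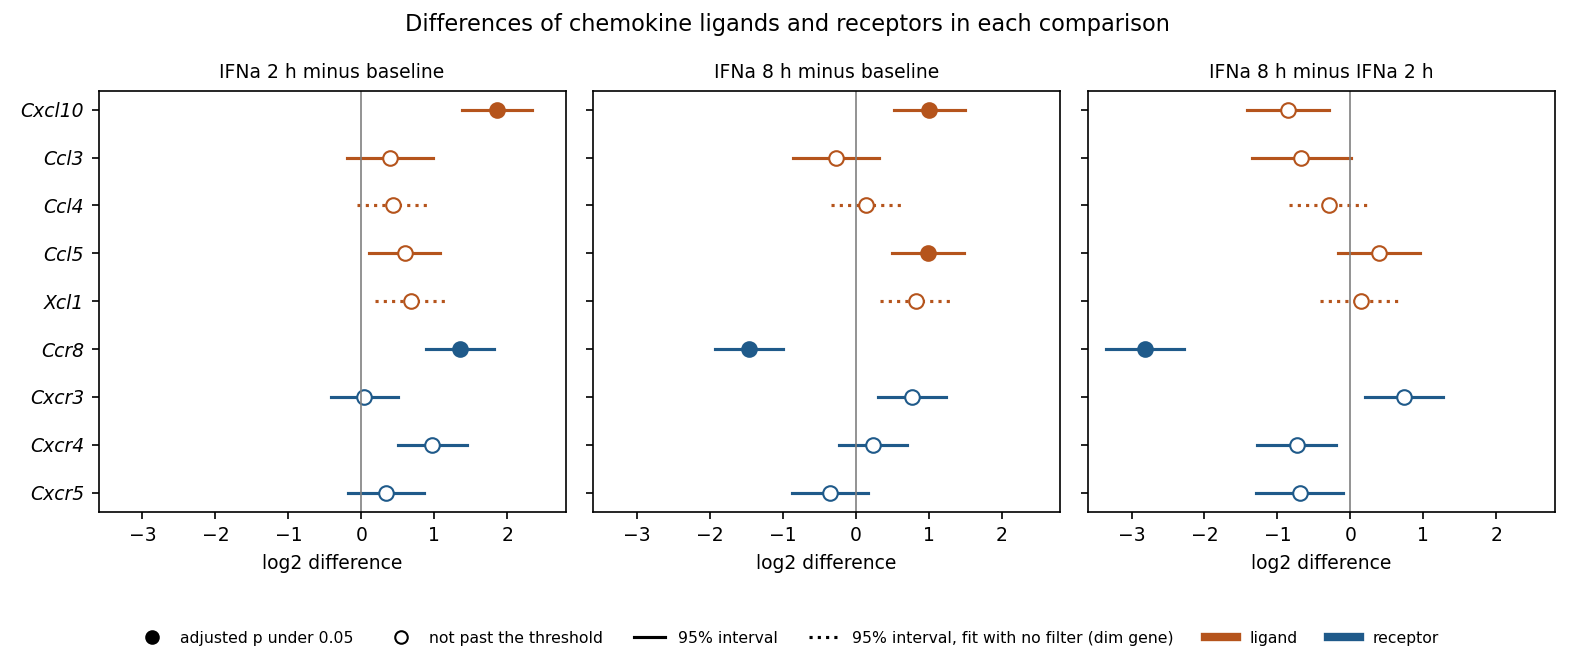
Log2 difference (horizontal axis) of each gene in the 3 comparisons, with 95% intervals from the limma model, ligands above receptors. Filled points passed an adjusted p of 0.05, and dotted intervals belong to the dim genes Ccl4 and Xcl1 in the fit with no filter. Cxcl10 and Ccr8 are filled at 2 h, Cxcl10, Ccl5 and Ccr8 at 8 h, and Ccr8 alone, at −2.82, for 8 h against 2 h.

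Ligands and receptors had like medians at 2 h and different ones at 8 h, described by counts and medians with no test between the classes. At 2 h, 2 of the 7 tested members rose, 1 ligand of 3 and 1 receptor of 4, beside 1.09% of all tested genes that rose, and none fell, beside 0.00935%. All 9 members, tested or not, lay above both baseline arrays at 2 h, beside 28.7% of all genes with a row. Cxcr3 did so by only 0.009, and its 2 h difference turned to −0.09 after quantile normalization. The 28.7% includes the dim genes, whose median 2 h difference was −0.16. The median difference was 0.59 for ligands and 0.65 for receptors, against −0.07 for all genes with a row and 0.06 for the tested ones. At 8 h, 2 ligands rose, beside 0.654% of tested genes, and 1 receptor fell, beside 3.35%. Above both baseline arrays were 4 of 5 ligands and 2 of 4 receptors at 8 h, beside 42.3% of all genes. Below both were 1 ligand and 2 receptors, beside 34.6%. That ligand was Ccl3, whose 8 h array matched the lower baseline array to 2 decimals. The 8 h median was 0.83 for ligands and −0.06 for receptors, against 0.04 for all genes with a row and −0.16 for the tested ones. The receptor median joins Ccr8 at −1.46 with Cxcr3 at 0.77, so it stands for no single receptor. The ligand median is the value of Xcl1, which was dim and not tested, and the ligands ran from −0.28 to 1.01. Over the 3 tested ligands the median was 0.99. At least 2-fold differences were found in 2 members at 2 h, beside 1.04% of all genes, in 2 at 8 h, beside 1.77%, and in 1 for 8 h against 2 h, beside 5.47%. The comparisons of 2 h and 8 h share the baseline arrays and are not independent. The 9 genes were chosen with earlier results of these data known, so the shares beside their counts are no test of them.

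In the direct comparison, 8 h against 2 h had 1 member called of 7, Ccr8, which fell, beside 10.8% of tested genes that fell and 1.46% that rose. The 8 h array was below the 2 h array in 3 of 5 ligands and 3 of 4 receptors, beside 41.7% of all genes. The higher ones were Ccl5, Xcl1 and Cxcr3, of which Xcl1 turned to −0.15 after quantile normalization and to −0.03 on centred arrays. The medians were −0.29 for ligands and −0.72 for receptors, against 0.12 for all genes and −0.25 for the tested ones. The ligand median is the value of Ccl4, which was dim, and the 3 tested ligands had a median of −0.67. With quantile normalization 5 members were called, 2 higher and 3 lower, in place of 1.

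Ligand and receptor pairs could be set side by side only as separate values. Cxcl10 was called higher at both times, and its receptor Cxcr3 differed by 0.04 and 0.77 without passing. The other ligands of Cxcr3, Cxcl9 and Cxcl11, were dim and untested, with differences of 0.34 and −0.20 at 2 h and 0.57 and 0.00 at 8 h. Ccl1 and Ccl8, ligands of Ccr8, were also dim, at 0.30 and −0.19 at 2 h and 0.75 and −0.33 at 8 h. Cxcl12 differed by −0.08 and −0.02, and Cxcl13 by −0.25 and 0.32. Ccr1 and Xcr1, receptors for Ccl3, Ccl5 and Xcl1, were under the median on every array. These partners give no test of a pair acting together in these cells.

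Across the whole families most of the calls were of members, which were chosen with earlier results of these data known. Of 38 listed ligands 36 had a row and 12 were tested. Cxcl10 was the 1 called higher at 2 h, while at 8 h Cxcl10 and Ccl5 rose and Ccl17, a ligand of Ccr4 made by dendritic cells and some T cells, fell. The part of dendritic cells in the Ccl17 level was not tested. The 5 dendritic cell markers had a median difference of −0.18 at 2 h and 0.34 at 8 h. Ccl17 had log2 levels of 8.71 and 8.39 at baseline, 8.01 after 2 h and 7.40 after 8 h. It was 2.22-fold lower at 8 h (difference −1.15), a call that was lost with no filter on dim genes. None of the 12 ligands was called for 8 h against 2 h. The other 24 ligands with a row were dim, and the median of all 36 was −0.17 at 2 h and 0.21 at 8 h, near the medians of all dim genes (−0.16 and 0.19).

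Of 19 listed receptors 18 had a row and 10 were tested. Ccr8 was the 1 called at 2 h and the 1 called at 8 h. Ccr8 and Ccr4 fell at 8 h against 2 h. Ccr4, a receptor of Th2, regulatory and skin-homing T cells, had log2 levels of 11.95 and 12.09 at baseline, 12.49 after 2 h and 11.59 after 8 h. Like Ccr8 it was highest at 2 h and lowest at 8 h, but its differences from baseline, 0.47 and −0.43, did not pass, and only the difference of −0.90 between the IFNa times did (adjusted p = 0.0454, or 0.0893 with no filter). Ccr7, the lymph node homing receptor, was bright on every array and differed by 0.23 at 2 h and 0.22 at 8 h (adjusted p = 0.667 and 0.515).

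**Figure D3:**
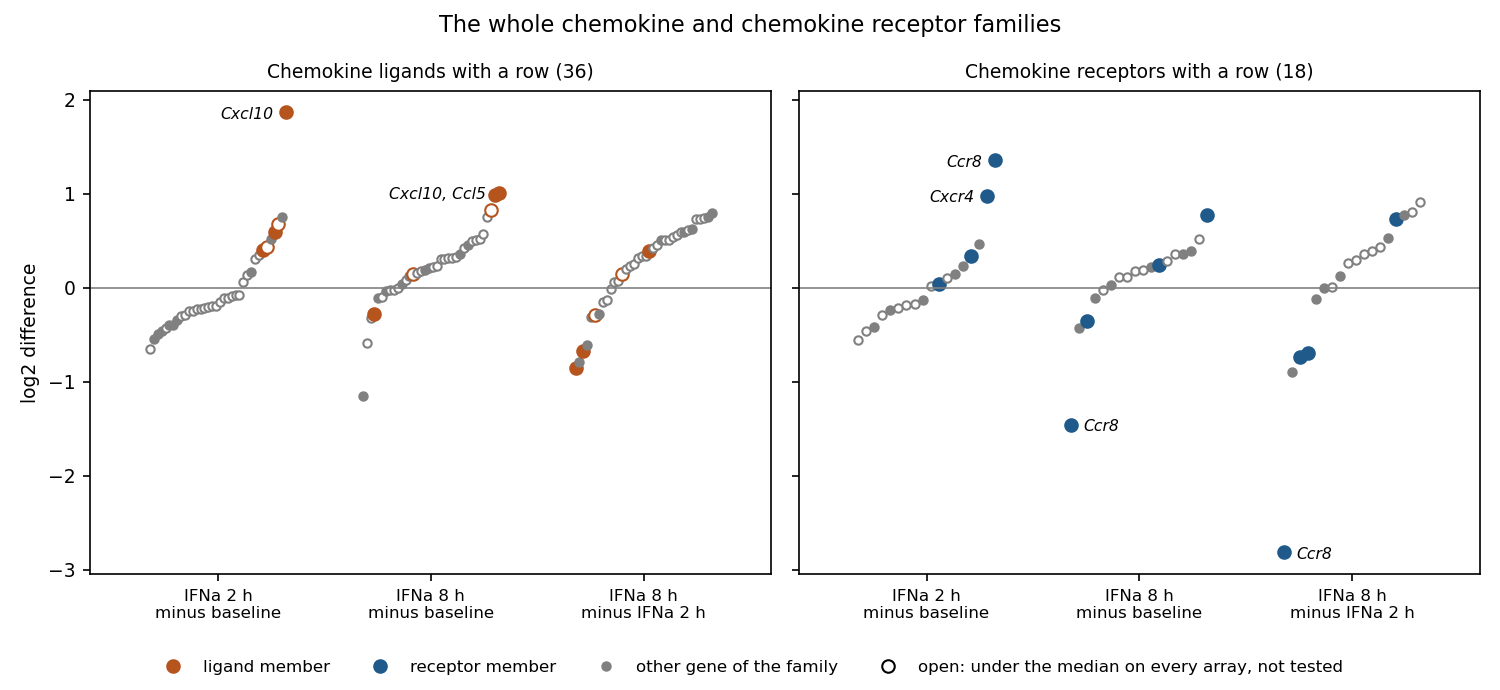
Log2 difference (vertical axis) of every chemokine ligand (left, 36 genes) and chemokine receptor (right, 18 genes) with a row, ordered by size within each of the 3 comparisons. Coloured points are the 9 members, grey points the other genes, and open points were under the median on every array and not tested. Cxcl10 at 2 h and Ccr8 in all 3 comparisons lie farthest from 0.

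Among 6 atypical or related receptors, 1 was tested. This was Ccrl2, which binds chemerin and does not signal through G proteins. It had log2 levels of 6.59 and 6.75 at baseline, 8.24 after 2 h and 7.22 after 8 h. Ccrl2 rose 2.97-fold at 2 h (difference 1.57, adjusted p = 0.0104, or 0.0235 with no filter) and fell by 1.02 on the log2 scale at 8 h against 2 h (adjusted p = 0.034, or 0.0703 with no filter), and its difference of 0.55 at 8 h did not pass (adjusted p = 0.157). Ccrl2 was above the array median on the 2 h array alone and so entered the test where it was high.

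Genes that carry or restrain the receptor signal were read as a list of 27, of which 26 had a row, all tested, with medians of 0.05 at 2 h and −0.01 at 8 h. Rgs1, which shortens signalling by inhibitory G proteins, rose at 2 h (difference 1.38, adjusted p = 0.0195), and no gene of the list fell. Its log2 levels were 9.46 and 9.67 at baseline, 10.94 after 2 h and 9.20 after 8 h. For 8 h against 2 h Rgs1 fell by 1.74 (adjusted p = 0.0102) and Pik3cg, the G protein-coupled PI3 kinase catalytic subunit, fell by 0.86 (adjusted p = 0.0481, or 0.0935 with no filter). One called gene of 26 at 2 h stood beside 1.09% of all tested genes that rose, and 2 of 26 beside 10.8% that fell between the IFNa times, so nothing is read from these counts about the list. None passed at 8 h against baseline, where Rgs1 differed by −0.36.

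Transcription factors with known roles at these genes were followed as a list of 15, of which 13 had a row and 12 were tested. Irf7, which amplifies interferon responses, rose 8.88-fold at 2 h (adjusted p = 0.000902) and 9.36-fold at 8 h (adjusted p = 0.000629). Stat2, a subunit of the complex that binds the ISRE, rose 2.68-fold at 2 h (adjusted p = 0.0261), and its partner Irf9 rose 1.99-fold at 8 h (adjusted p = 0.0388). Both calls were lost with no filter on dim genes, at adjusted p of 0.0578 and 0.0843. Neither passed at the other time, with differences of 0.88 for Stat2 at 8 h (adjusted p = 0.0725) and 1.04 for Irf9 at 2 h (adjusted p = 0.0613). Tbx21, the Th1 factor that drives Cxcr3, differed by 0.07 and 0.01 (adjusted p = 0.911 and 0.98). Bcl6, the factor of follicular helper cells, differed by 0.89 at 2 h and −0.07 at 8 h without passing, and fell by 0.96 at 8 h against 2 h (adjusted p = 0.0382, or 0.0775 with no filter).

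Profiles were compared by the Euclidean distance between log2 values over the 4 arrays, each gene centred on its own mean, as a description over arrays that share cells and processing. Among the 7 tested members Ccl3 and Cxcr5 were the closest pair, at 0.15, and Ccr8 and Cxcr3 the farthest apart, at 2.55. Ccr8 was at least 1.51 from each of the other members. The tested genes nearest to Ccr8 were Atf3, Bhlhe40 and Egr2, at distances of 0.31, 0.35 and 0.41. Those nearest to Cxcl10 were Ccnyl1, Parp14 and Isg20, at 0.24, 0.34 and 0.36. Ccl5 was nearest to Anxa2, Plac8 and Phf11a (0.05 to 0.16), Cxcr4 to Pla2g4c, Mir15a and Gbp3 (0.03 to 0.11), and Cxcr3 to Cryaa, Gng4 and Slc7a10 (0.05 to 0.06). Ccl3 was nearest to Acaa2, Ppp1r8 and Coil, and Cxcr5 to Rbm45, Cops6 and Grpel1, all within 0.03. On the deposited values Ccl3 and Cxcr5 passed in no comparison, and genes with small differences have many near matches.

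**Figure D4:**
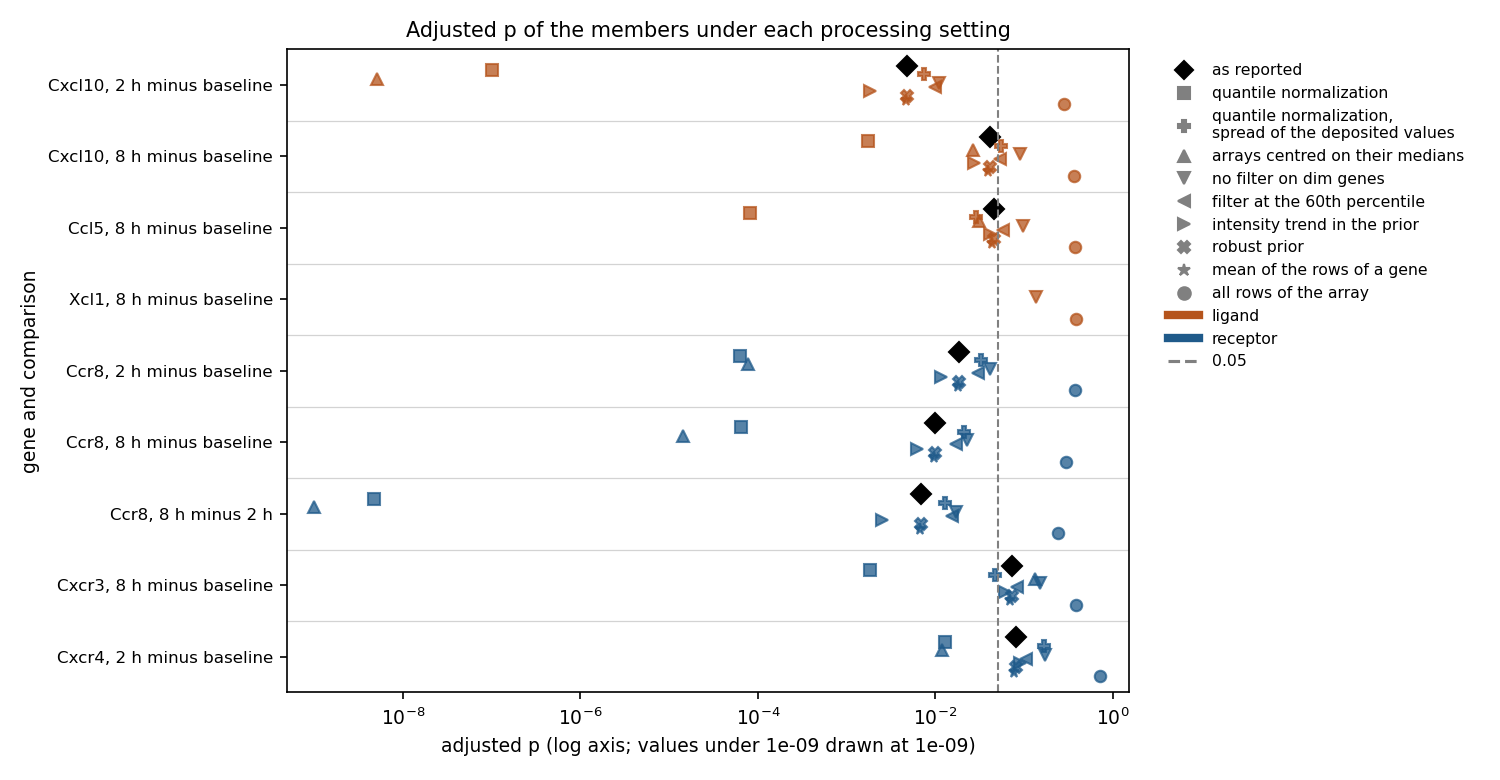
Adjusted p (horizontal log axis) under each processing setting for the called differences of Cxcl10, Ccl5 and Ccr8, and for Xcl1 and Cxcr3 at 8 h and Cxcr4 at 2 h, with the threshold of 0.05 as a dashed line. Black diamonds are the reported values and coloured symbols the alternatives. The Cxcl10 and Ccl5 values at 8 h, 0.0411 and 0.0451, sit at the line with alternatives on both sides, and all values are right of the line when every row of the array is tested.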

How the data were processed

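RNA of each sample was hybridised to 1 Affymetrix whole-transcript mouse gene array. The deposited values are intensities on a linear scale. RMA and Affymetrix Power Tools were used to make them, as the submitters' processing notes state. Versions, and which arrays were processed together, are not given in the sources used here. Log2 was taken of the deposited intensity with no pseudocount. Of 24922 rows, 21425 had 1 gene symbol in the platform annotation, 1399 had several and 2098 had none listed. RefSeq (GRCm38.p6) changed 0 symbols, and 78 had no match there. For 921 genes with several rows the one with the highest mean was kept.

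Genes above the array median on at least 1 array (10699) were fitted with limma 3.58.1 in R 4.3.3, with a mean for each of 3 groups, empirical Bayes moderation and two-sided Benjamini-Hochberg adjusted p under 0.05. Only the 2 baseline arrays gave a spread (1 residual degree of freedom per gene, prior of 7.46 degrees of freedom, prior SD 0.175), and the lone IFNa arrays were assumed to vary likewise. The number of arrays limits the precision. The code was tested on simulated data.

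Alternatives were quantile normalization, centring on array medians, no filter on dim genes, a stricter filter (60th percentile), a prior with an intensity trend, a robust prior, averaging the several rows of a gene, testing all rows, an adjusted p under 0.1, leaving out each baseline array, and, chosen after seeing the data, quantile-normalized differences with the spread of the deposited values.

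The 9 genes and all gene lists were chosen with earlier results of these data known. Named were the 9 genes, the called genes of each list (up to 4 per comparison, otherwise the largest as values), the partners of the 9, and the 3 genes nearest in profile to each tested one. Cx3cr1, Ccr7 and Tbx21 were added after their values were seen.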

Additional observations from a re-analysis of the deposited data

Results flagged for a closer look

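Between the 2 IFNa times, 7 named genes differed by a direct limma test of 8 h against 2 h, each on 1 array per time. Called genes of a list were named because they were called, so their number follows from that choice. Ccr8 was lower at 8 h, by a log2 difference of −2.82. The G protein regulator Rgs1 was lower by −1.74, the chemerin-binding receptor Ccrl2 by −1.02 and the transcription factor Bcl6 by −0.96. The receptor Ccr4 was lower by −0.9 and the kinase subunit Pik3cg by −0.86. As given above, Ccrl2, Bcl6, Ccr4 and Pik3cg did not pass with no filter on dim genes. Zbtb7b, a factor of the CD4 lineage, was higher at 8 h by 1.12, with an adjusted p of 0.0279, and passed at neither time against baseline. The log2 level of Zbtb7b was 9.97 and 9.80 at baseline, 9.06 after 2 h and 10.18 after 8 h. Its result with no filter on dim genes is not given here. Of all tested genes 10.8% were lower at 8 h than at 2 h and 1.46% higher.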

How the results depend on the processing

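No paired analysis was possible because the IFNa groups share only replicate number 1 with the baseline. The spread rests on 1 residual degree of freedom per gene, so the prior weighs heavily, and its degrees of freedom were 34.8 with quantile normalization and 3.51 with all rows, against 7.46 as reported. With all rows limma called 0 genes and 0 members in each comparison, though 1141 rows at 2 h, 2883 at 8 h and 4971 for 8 h against 2 h had an unadjusted p under 0.05, with 5, 5 and 4 of the 9 genes among them. The Cxcl10 and Ccr8 calls at 2 h and the Ccr8 calls at 8 h and between the IFNa times were lost with all rows only. At 8 h 1 member, Ccr8, was called with no filter and with the 60th percentile filter, in place of 3, and Cxcl10 was also lost at 8 h with quantile differences and the deposited spread (adjusted p = 0.0543). Between the IFNa times, in place of 1, the members called were 5 with quantile normalization, 4 with centring, 2 with an intensity trend, 2 with quantile differences and the deposited spread, and 4 at an adjusted p under 0.1.

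Of all tested genes, 118 were called at 2 h, against 441 with quantile normalization, 298 with centring and 188 under 0.1. At 8 h 428 were called, against 1563, 794 and 1031, with 143 without a filter and 255 at the 60th percentile. Between the IFNa times 1311 were called, against 2306, 2387 and 2999, with 415 without a filter and 725 with quantile differences and the deposited spread (214 higher, 511 lower). Leaving out a baseline array gave 144 to 366 genes at least 2-fold different at 2 h (196 with both, 366 without replicate 2) and 310 to 528 at 8 h (339 with both, 528 without replicate 1), 2 to 3 members at 2 h, 2 at 8 h, and ligand medians of 0.50 to 0.72 at 2 h. Class medians also moved with centring, to 0.75 for receptors at 2 h and −0.14 at 8 h, and to −0.47 for ligands and −0.89 for receptors between the IFNa times. With quantile normalization they were 0.66 for ligands at 8 h, and −0.59 for ligands and −0.64 for receptors between the IFNa times. The causes were not tested.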
